A study of Mus musculus with 162 samples.

Results

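Levels of 10 genes of mast cells and basophils, of 46078 genes counted, were followed in mouse cheek skin treated with MC903. The genes were taken by name after Ensembl identifiers had been matched to mouse symbols: the mast cell proteases Mcpt4, Cma1, Cpa3, Tpsb2 and Tpsab1, the basophil protease Mcpt8, and Kit, Fcer1a, Ms4a2 and Hdc. RNA-seq counts came from 61 of the 70 skin libraries of a series of 162, with the 9 wild-type day 12 skin libraries left out.

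Mast cells live in the dermis of resting skin, depend on the receptor Kit, and store histamine, chymases, tryptases and carboxypeptidase bound to heparin in their granules. Basophils are short-lived blood granulocytes that enter skin during allergic inflammation and grow in response to interleukin 3 and thymic stromal lymphopoietin (TSLP). Both carry the high-affinity IgE receptor and make histamine, so several of these genes mark both cell types, but Mcpt8 in the mouse is known as a protease of basophils and Mcpt4, Cma1 and Tpsb2 as proteases of connective tissue mast cells.

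All mice were adult males labelled C57BL/6, and the study's methods give an age of 8 to 12 weeks. MC903 (calcipotriol, a vitamin D analogue that produces a dermatitis used as a model of atopic eczema) was applied daily to the cheek as 20 µL of a 0.2 mM solution in ethanol, and every comparison was with cheek skin that received ethanol alone. Wild-type mice without injection gave 4 MC903 and 4 ethanol libraries at day 1 (6 hours after the first treatment), 3 and 2 at day 2, 3 and 3 at day 5, and 5 and 6 at day 8. The day 8 libraries carry titles of 2 styles, handled as cohort A (3 MC903, 3 ethanol) and cohort B (2 and 3). Wild-type mice injected with PBS gave 2 and 3 libraries at day 8, and those injected with 250 µg of aGr1, an antibody that binds the granulocyte surface antigens Ly6G and Ly6C, gave 4 and 4. Mice lacking the leukotriene B4 receptor (BLT1 KO) gave 3 and 3 at day 8. Mice carrying the Crlf2 tm1Jni allele, which lack the receptor for TSLP (TSLPR KO) and were backcrossed to C57BL/6, gave 3 and 2 at day 8 and 4 and 3 at day 12. The sources used here name no cell type for either knockout, so these libraries cannot say in which cell the receptor acts.

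The libraries held between 17431296 and 67342879 counts on genes, with a median of 28927563. Levels are given in cpm, a gene's count scaled to the library total on genes with no other normalization and expressed per 1000000 counts. Crlf2 lay between 0.0691 and 1.34 cpm in the TSLPR KO libraries and between 2.24 and 15.4 cpm in all others, without overlap. Ltb4r1, the gene of BLT1, was still counted at 2.33 to 15.1 cpm in the BLT1 KO libraries, but the sources used here do not say which part of the gene is missing, so this does not check the label. In the aGr1 group 8 of the 9 neutrophil marker genes tested were higher with MC903, where 15.1% of all genes were. Ly6g itself stayed between 0 and 0.0457 cpm. With MC903 the 10 genes of the list summed to 190 to 208 cpm in the aGr1 group. They summed to 306 to 411 cpm in PBS-injected and 74.4 to 383 cpm in uninjected wild-type MC903 skin at day 8. The MC903 effect with aGr1 differed from that in uninjected wild-type skin for 0 of the 10, and for 4.56% of all genes. These are RNA levels in whole skin and no count of neutrophils. By flow cytometry, the paper reports that aGr1 lowered neutrophil numbers in blood and in MC903-treated skin. One MC903 library of day 2, replicate 3, stood apart through transcripts of sensory neurons, whose 7 marker genes summed to 1167 cpm against at most 43.1 cpm in every library of the other groups.

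Mcpt4, Cma1 and Mcpt8 lie in the chymase cluster of chromosome 14 on the minus strand (GRCm38: Cma1 at chr14:55941451-55944675, Mcpt4 at chr14:56059629-56062313, Mcpt8 at chr14:56082166-56085273). Tpsab1 (minus strand, chr17:25343245-25345562) and Tpsb2 (plus strand, chr17:25366305-25369098) lie in the tryptase cluster, and Cpa3 lies on the minus strand at chr3:20215620-20242181. The stretches upstream of 4 of them are printed because the neighbours Mcpt8 and Mcpt4 behaved so differently in the skin. They run from 250 bases before the RefSeq start (GRCm38.p6, minus strand, 5′ to 3′) to the base before the annotated gene. Capitals mark a GATA motif, the letters GATA after A or T and before A or G, on either strand, which GATA2, a regulator of both mast cells and basophils, is known to bind.
Mcpt8 (chr14:56085274-56085447): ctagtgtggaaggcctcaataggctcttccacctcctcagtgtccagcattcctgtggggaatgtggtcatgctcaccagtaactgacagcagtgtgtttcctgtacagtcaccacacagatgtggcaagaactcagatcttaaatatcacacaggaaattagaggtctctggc
Mcpt4 (chr14:56062314-56062560): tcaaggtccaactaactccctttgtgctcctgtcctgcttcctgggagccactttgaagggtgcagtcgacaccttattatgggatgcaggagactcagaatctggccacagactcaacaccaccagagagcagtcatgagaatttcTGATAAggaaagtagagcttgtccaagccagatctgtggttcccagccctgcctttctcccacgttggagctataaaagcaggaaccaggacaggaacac
Cma1 (chr14:55944676-55944925): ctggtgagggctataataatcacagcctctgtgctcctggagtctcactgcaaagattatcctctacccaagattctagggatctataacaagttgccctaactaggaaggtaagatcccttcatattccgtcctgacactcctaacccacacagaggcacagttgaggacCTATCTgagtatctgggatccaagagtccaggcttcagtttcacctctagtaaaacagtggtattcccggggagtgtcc
Cpa3 (chr3:20242182-20242431): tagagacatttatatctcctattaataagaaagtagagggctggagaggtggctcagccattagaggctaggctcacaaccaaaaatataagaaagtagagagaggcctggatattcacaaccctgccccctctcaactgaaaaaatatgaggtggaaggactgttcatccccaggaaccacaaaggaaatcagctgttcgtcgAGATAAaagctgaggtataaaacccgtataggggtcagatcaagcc

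Over windows from 250 bases before to 50 bases after the RefSeq start, the GATA letters occurred for 6 of the 8 genes that have an entry (Mcpt4, Cma1, Cpa3, Fcer1a, Ms4a2 and Hdc, but neither Mcpt8 nor Kit), and in 30.2% of 27025 promoters of the same length. The E-box letters CACGTG or CATGTG, which the mast cell factor MITF is known to bind, occurred for 1 of the 8, Fcer1a, and in 20.5% of all promoters. A match of letters is a description and no proof of binding. Tpsb2 and Tpsab1 had no entry.

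In ethanol-treated wild-type skin at day 8, the mast cell proteases led and Mcpt8 came last when levels were set per kilobase of exon. Mcpt4, a chymase, stood at 19.8 ± 5.79 cpm per kb (SD, n = 6), and Cpa3, the mast cell carboxypeptidase, at 16.8 ± 5.47. These neighbours in the order overlapped. Cma1, another chymase, followed at 8.86 ± 2.31 cpm per kb, Kit, the receptor for stem cell factor, at 4.47 ± 0.63, and Tpsb2, a tryptase, at 2.13 ± 0.60. The remaining genes were below 1 cpm per kb: Ms4a2 (the beta subunit of the IgE receptor) at 0.638, Hdc (the enzyme that makes histamine) at 0.352, Fcer1a (the alpha subunit, which binds IgE) at 0.225, Tpsab1 at 0.104 and Mcpt8 at 0.0857. Adjacent genes within this lower group overlapped. C57BL/6 mice are known to lack the Tpsab1 protein through a splice mutation, so its low counts concern a transcript only.

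Reads of 50 bases can be shared by near-identical copies. Of the 50-base words in its exons, Mcpt4 shares 5.48% with Cma2, Cma1 shares 5.38% with the annotated gene Gm48934 and Ms4a2 shares 2.1% with other genes, while Mcpt8, Cpa3, Tpsb2, Tpsab1, Kit and Fcer1a share none.

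Mcpt8 was at or near 0 in ethanol-treated skin and rose over a period of days. At day 1 it had 0 counts in all 8 libraries, so no test was made and a count of 0 allows up to 3 counts in a library. At day 2 it had 18, 35 and 11 counts with MC903 (0.775, 1.26 and 0.388 cpm) and 0 in both ethanol libraries. Each MC903 library was therefore above each ethanol library, and against a floor of 3 counts per library the level was at least 7.53-fold higher. The fitted change of 7.46 ± 1.5 on the log2 scale depends on the small count that the fit adds to 0 and is no bound. Its adjusted p was 0.536 (edgeR, quasi-likelihood, adjusted by Benjamini-Hochberg for every gene in the fit), and it lay between 0.176 and 1 with a library left out. It passed with DESeq2 (adjusted p = 0.016) and in 1 edgeR fit over all wild-type days (0.00483). The threshold throughout is an adjusted p of 0.05. All MC903 libraries were above all ethanol libraries for Mcpt8 and Hdc at day 2, and for 10.6% of all genes.

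At day 5 Mcpt8 was at 10.6, 3.27 and 3.66 cpm with MC903 and at 0, 0 and 0.0361 cpm with ethanol. The groups were widely apart, and replicate 1 of MC903 stood above the other MC903 libraries. With 454 counts against 1, the ratio was 476 (95% interval 84.9 to 18829, counting error only), and the gene passed the test (adjusted p = 0.00139).
At day 8 the 5 MC903 libraries held 9.98, 7.56 and 21.7 cpm in cohort A and 13.6 and 16.2 cpm in cohort B, while the 6 ethanol libraries ran from 0.0252 through a median of 0.0973 to 0.122 cpm. The lowest MC903 library was far above the highest ethanol library. The log2 fold change was 7.32 ± 0.36 (adjusted p = 3.43e-08), 7.22 in cohort A alone and 7.39 in cohort B alone, and from 7.06 to 7.45 with a library left out.

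**Figure D1:**
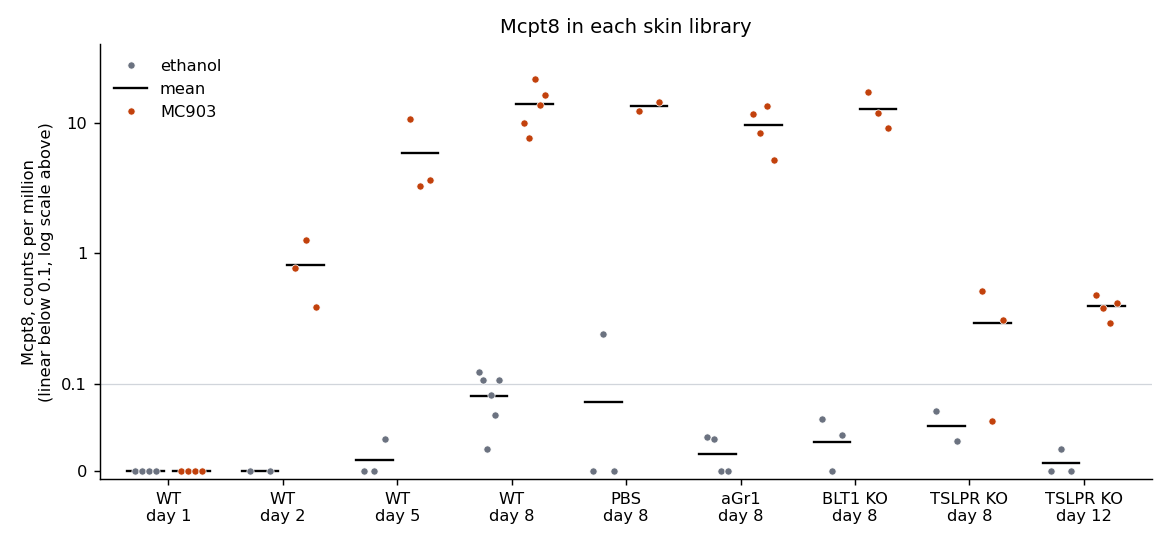
Mcpt8 in cpm in each of the 61 skin libraries, by group (horizontal axis), with ethanol in grey, MC903 in orange and group means as bars; the vertical axis is linear below 0.1 and logarithmic above. MC903 libraries of the wild-type, PBS, aGr1 and BLT1 KO groups at days 5 and 8 sit between 3.27 and 21.7 cpm, while those of the TSLPR KO groups sit between 0.0574 and 0.515 cpm.

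Fcer1a, Ms4a2 and Hdc, which mast cells and basophils share, rose after day 2. At day 2 Fcer1a (1.03), Ms4a2 (0.69) and Hdc (0.92 on the log2 scale) did not pass, although the 3 Hdc values with MC903 (5.43, 4.39 and 2.51 cpm) were all above those with ethanol (2.10 and 2.07 cpm). In that comparison edgeR called no gene at all (0 of 24580), 1190 had an unadjusted p below the threshold and DESeq2's Wald test called 280.

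At day 5 Fcer1a was at 5.30, 2.10 and 3.50 cpm with MC903 and at 0.624, 0.482 and 0.398 cpm with ethanol, a log2 fold change of 2.75 ± 0.40 (adjusted p = 0.0047 by edgeR). Hdc was at 28.4, 15.5 and 10.3 cpm with MC903 and at 2.96, 3.29 and 0.542 cpm with ethanol, a change of 2.99 ± 0.56 (adjusted p = 0.012). Neither pair of groups overlapped. Ms4a2 was at 9.89, 4.995 and 6.72 cpm against 3.58, 5.78 and 1.41 cpm, which overlap, and did not pass (0.98 ± 0.41, adjusted p = 0.147).

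At day 8 all 3 rose. Fcer1a was at 8.94, 7.33 and 10.1 cpm (cohort A) and 4.96 and 5.89 cpm (cohort B) with MC903, against 0 to 0.763 cpm with ethanol (median 0.169), a log2 fold change of 5.20 ± 0.65 (adjusted p = 0.00011). Hdc was at 51.7, 26, 89.8, 33.6 and 47.4 cpm against 1.26 to 3.42 cpm (median 2.23), a change of 4.45 ± 0.35 (adjusted p = 1.79e-06). Ms4a2 was at 5.54, 6.64, 8.62, 9.44 and 8.6 cpm against 1.09 to 3.06 cpm (median 1.57), a change of 2.18 ± 0.21 (adjusted p = 1.35e-05). For each of them every MC903 library was above every ethanol library, and each passed in either cohort alone. In bulk skin, more or fewer cells of a type cannot be told apart from more or less RNA per cell.

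**Figure D2:**
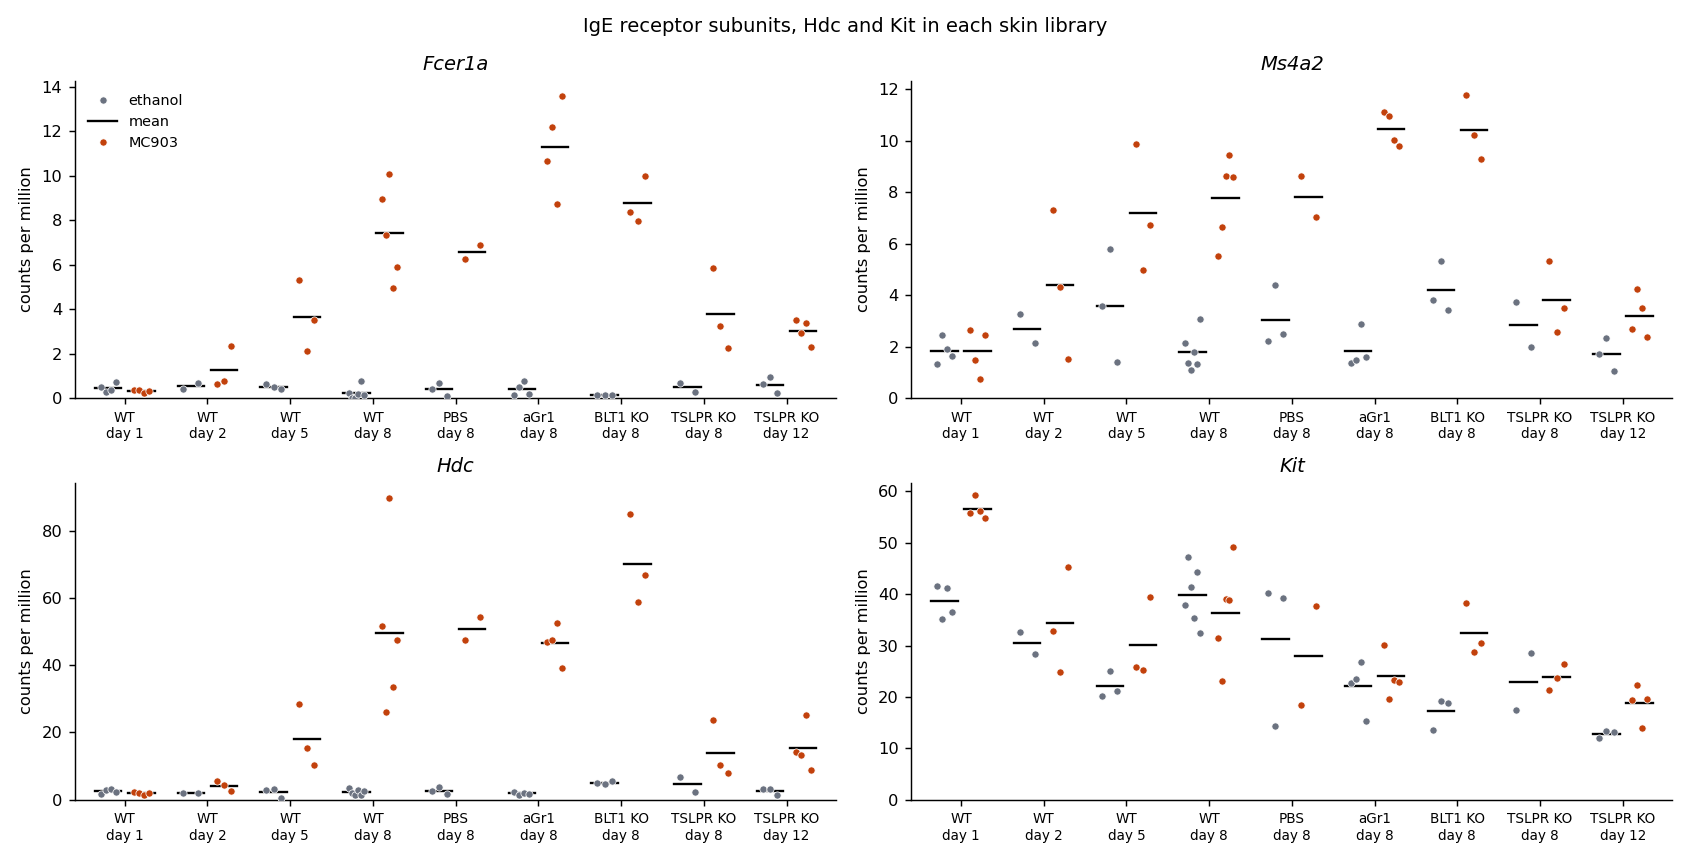
Fcer1a, Ms4a2, Hdc and Kit in cpm (vertical axes, linear from 0) in each skin library by group, with ethanol in grey, MC903 in orange and means as bars. At day 8 the MC903 libraries of wild-type skin sit above all ethanol libraries for Fcer1a, Ms4a2 and Hdc, and the 2 treatments overlap for Kit.

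The tissue mast cell proteases did not follow this course. At day 1 Cpa3 and Mcpt4 fell. Cpa3 was at 19.4, 17.5, 16.2 and 20.6 cpm against 21.1, 31.7, 34.4 and 27 cpm, every MC903 library below every ethanol library. It fell by 0.67 ± 0.13 on the log2 scale (adjusted p = 0.012). Mcpt4 was at 23.8, 22.8, 16.8 and 25.9 cpm against 24.4, 40.6, 37.0 and 29.3 cpm, which overlap, and fell by 0.60 ± 0.14 (adjusted p = 0.0218). Cma1 (-0.70), Tpsb2 (-0.43) and Tpsab1 (0.48) did not pass. With Kit, described below, 3 of the 9 genes tested passed, 1 higher and 2 lower, where 5.51% of all genes were higher and 7.47% lower, and the median log2 fold change of the 9 was -0.44 against 0.0013 for all genes.
The 2 treatments did not overlap for Kit (higher, as for 7.48% of all genes) and Cpa3 (lower, as for 5.35%). Cma1 passed without ethanol replicate 1 (-0.91, adjusted p = 0.00284). The fall of Mcpt4 was not called without MC903 replicate 1, 2 or 3 or without ethanol replicate 2 or 3 (-0.59 to -0.52, adjusted p up to 0.0664), and neither fall was called when libraries were scaled by their totals alone (adjusted p = 0.103 for Mcpt4 and 0.0542 for Cpa3). At the same 6 hours, 6 of 7 dermal fibroblast genes, 2 of 4 genes common to leukocytes and 5 of 13 genes of IgE receptor signalling were lower with MC903 and none was higher; their part in the result was not tested.

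At day 2 and day 5 no protease passed. Their log2 fold changes were -0.52 to 0.09 at day 2 and 0.09 (Mcpt4) to 0.71 (Tpsab1) at day 5, when Mcpt4 was at 68.1, 37.5 and 36.5 cpm with MC903 against 53.8, 43.5 and 29.5 cpm with ethanol, and Cpa3 at 59.7, 56.6 and 35.5 cpm against 55.1, 42.8 and 25.6 cpm. Both overlapped. At day 5, 3 of the 10 genes passed, all higher (Mcpt8, Fcer1a and Hdc), where 8.15% of all genes were higher, and the median of the 10 was 0.60 against -0.03 for all genes. The same 3 passed without each library in turn. All MC903 libraries lay above all ethanol libraries for 5 of the 10 genes (Mcpt8, Fcer1a, Hdc, Tpsab1 and Kit) and for 20.7% of all genes.

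At day 8 all 5 proteases rose. Mcpt4 was at 31.2, 48.5 and 54.2 cpm (cohort A) and 26 and 33 cpm (cohort B) with MC903, against 14.1 to 29.8 cpm with ethanol (median 24.1). Cohort B library 1 fell inside the range of ethanol, and the log2 fold change was 0.81 ± 0.23 (adjusted p = 0.0222). Cma1 was at 20.8, 27.5, 33.8, 15.4 and 18.7 cpm against 5.96 to 12 cpm (median 10.8), a change of 1.26 ± 0.23 (adjusted p = 0.0016). Cpa3 was at 52.3, 55.3, 88.1, 43.3 and 50.3 cpm against 13.6 to 37.5 cpm (median 26.3), also 1.26 ± 0.23 (adjusted p = 0.00175). For Cma1 and Cpa3 the groups did not overlap.

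Tpsb2 was at 13.7, 17.7 and 14.4 cpm in cohort A and at 4.62 and 4.53 cpm in cohort B, against 2.36 to 5.20 cpm with ethanol (median 3.21). Tpsab1 was at 2.04, 1.61 and 1.94 cpm in cohort A and at 0.479 and 0.760 cpm in cohort B, against 0.0268 to 0.541 cpm (median 0.104). Both rose, by 1.44 ± 0.27 and 2.63 ± 0.69 on the log2 scale (adjusted p = 0.00232 and 0.0156), but in both the cohort B libraries with MC903 overlapped or adjoined those with ethanol.

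The protease fold changes were larger in cohort A than in cohort B. Ethanol levels of Cpa3 were lower in cohort A (24.5, 19.6 and 13.6 cpm) than in cohort B (28.1, 29.4 and 37.5 cpm). Those of Mcpt4, Cma1, Tpsb2 and Tpsab1 overlapped between the cohorts. In cohort A alone the log2 fold changes of Mcpt4, Cma1, Cpa3, Tpsb2 and Tpsab1 were 1.2, 1.70, 1.74, 2.06 and 4.15, and all passed. In cohort B alone they were 0.29, 0.66, 0.60, 0.57 and 0.88, and Cpa3 passed (adjusted p = 0.0422). The difference between the cohorts was not tested. The call of Mcpt4 was also lost without MC903 library A2 (0.73, adjusted p = 0.0527) and without ethanol library A2 or A3 (0.68 and 0.67).

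Of the 10 genes, 9 rose at day 8, where 12.2% of all 26175 genes tested did, with a median log2 fold change of 1.81 against -0.03 for all genes. The exception was Kit. In cohort B alone 5 of the 10 passed. Over all fits of day 8, cohort B alone among them, 9.36 to 29.8% of all genes passed in either direction. The MC903 libraries were all above the ethanol libraries for 6 of the 10, and for 6.95% of all genes.

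**Figure D3:**
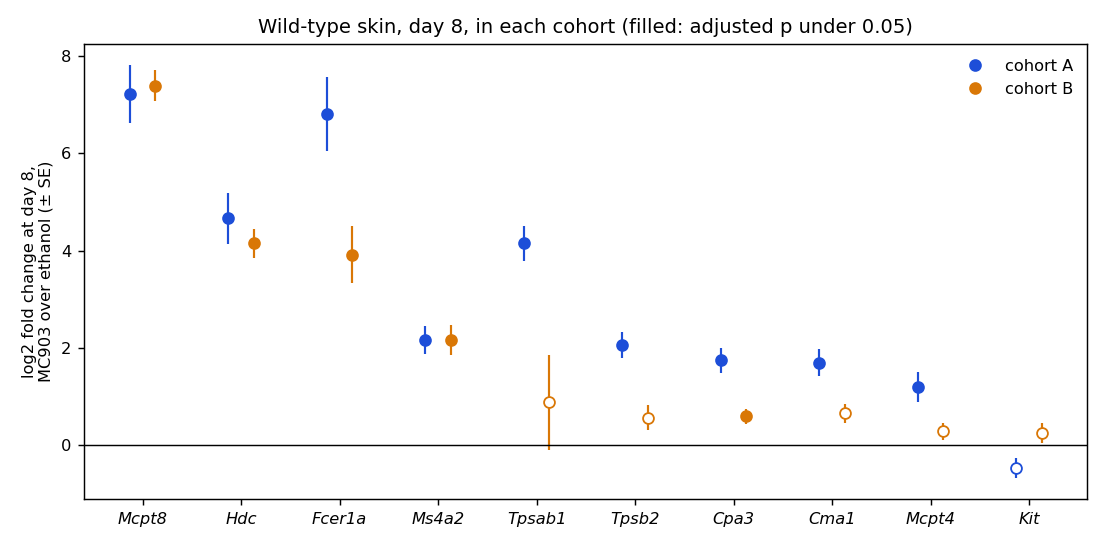
Log2 fold change of MC903 over ethanol in wild-type skin at day 8 (vertical axis, with standard errors) for each gene, in cohort A (blue) and cohort B (orange) fitted alone; filled points have an adjusted p under 0.05. Mcpt8 is at 7.22 and 7.39, while the proteases lie between 1.2 and 4.15 in cohort A and between 0.29 and 0.88 in cohort B.

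Kit, which mast cells share with melanocytes and other cells, rose at day 1 and not at day 8. At day 1 it was at 55.8, 59.3, 56.2 and 54.8 cpm with MC903 against 41.5, 35.2, 41.2 and 36.5 cpm with ethanol, without overlap, a log2 fold change of 0.51 ± 0.11 (adjusted p = 0.0171). The call was lost without MC903 replicate 2 or ethanol replicate 3 (0.51 and 0.52, adjusted p = 0.0526 and 0.0549). At day 8 it was at 31.4, 23.1, 39.1, 38.8 and 49.2 cpm against 32.4 to 47.2 cpm (median 39.7), which overlap (-0.13 ± 0.19, adjusted p = 0.667); the sign was positive in cohort B alone (0.26). Of 8 melanocyte genes, 1 was higher and 0 lower at day 1, where 5.51% of all genes were higher. At day 8, 7 of the 8 were lower and 0 higher, where 2936 of all 26175 genes tested were lower. What melanocytes add to the Kit counts was not tested.

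**Figure D4:**
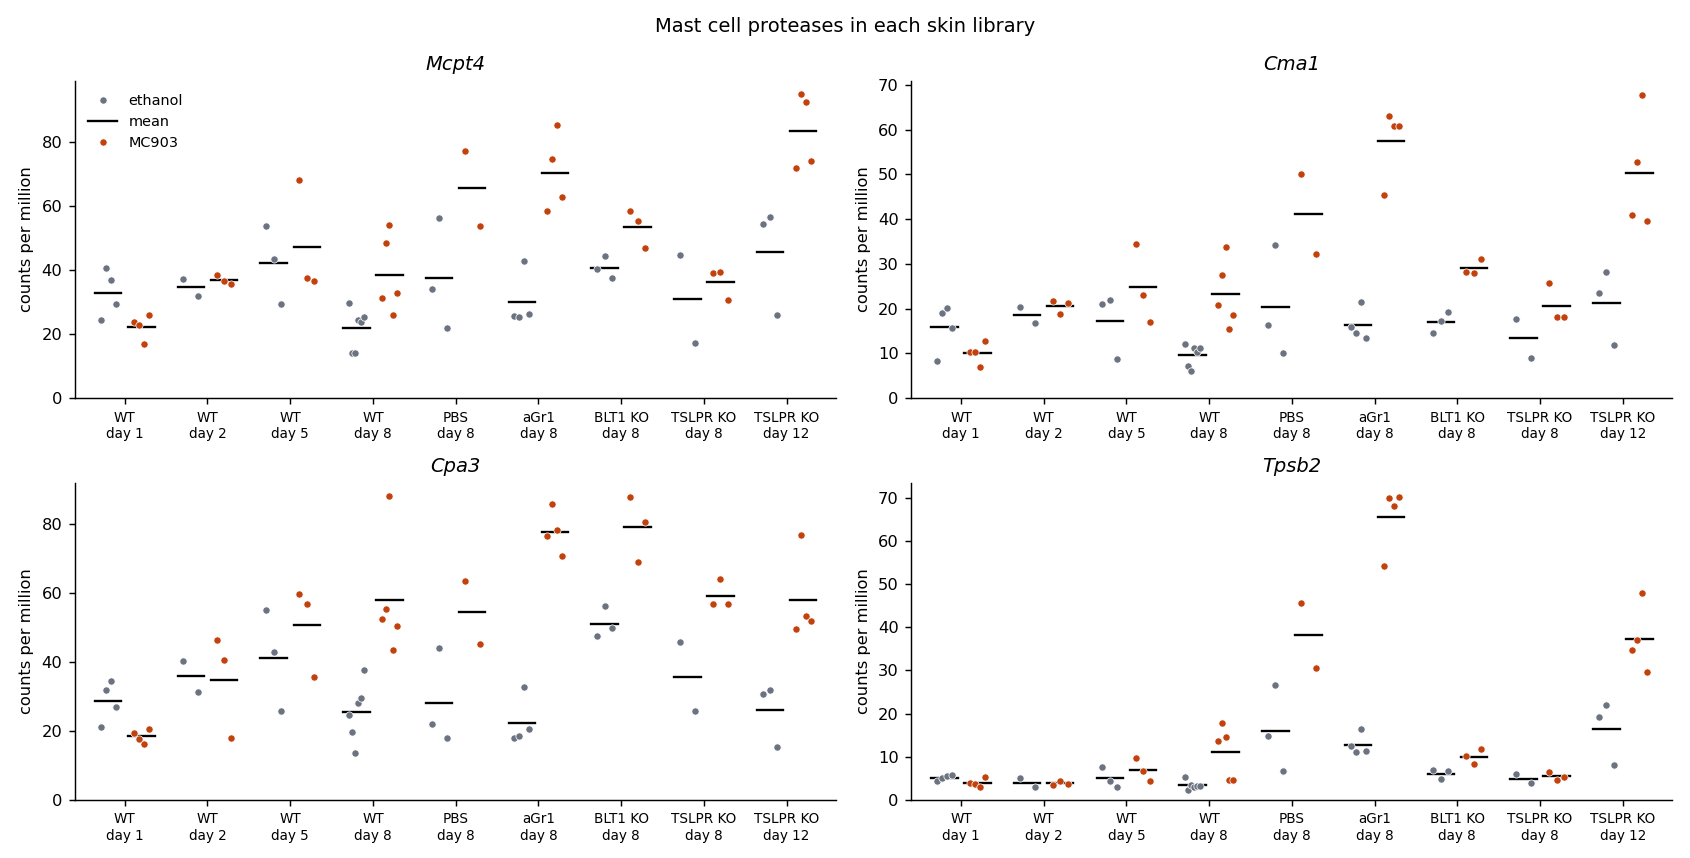
Mcpt4, Cma1, Cpa3 and Tpsb2 in cpm (vertical axes, linear from 0) in each skin library by group, with ethanol in grey, MC903 in orange and means as bars. Ethanol levels of Mcpt4 reach 56.7 cpm, above the MC903 levels of wild-type skin at day 8, and Tpsb2 reaches 54.3 to 70.2 cpm in MC903 skin of the aGr1 group.

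Set against Mcpt4 in the same library, Mcpt8 went from a trace to a large share. In wild-type skin at day 8, Mcpt8 per kb was 17.3 to 58.4% of Mcpt4 per kb with MC903 (median 44.5%, n = 5) and 0.198 to 0.844% with ethanol (median 0.426%, n = 6), without overlap. The levels above already fix this separation, so it is given with no test. The MC903 values were 35.5, 17.3 and 44.5% in cohort A and 58.4 and 54.4% in cohort B. With Cpa3 in place of Mcpt4 the medians were 37.5 and 0.453%.

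The median share was 2.23% at day 2 and 11.1% at day 5 with MC903, and 0% with ethanol at both days. At day 8 the medians with MC903 were 23.7% in PBS-injected, 14.9% in aGr1-injected and 23.8% in BLT1 KO skin, against at most 0.468% in any ethanol library of these groups. In TSLPR KO skin they were 1.13% at day 8 and 0.534% at day 12. In the per-kilobase order of MC903 wild-type skin at day 8, Mcpt8 (13.8 ± 5.54 cpm per kb, n = 5) came after Cpa3 (38.1), Mcpt4 (34.8) and Cma1 (21.3) and ahead of Hdc (7.78), Fcer1a (7.45), Tpsb2 (6.90), Kit (4.08), Ms4a2 (2.76) and Tpsab1 (0.653).

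**Figure D5:**
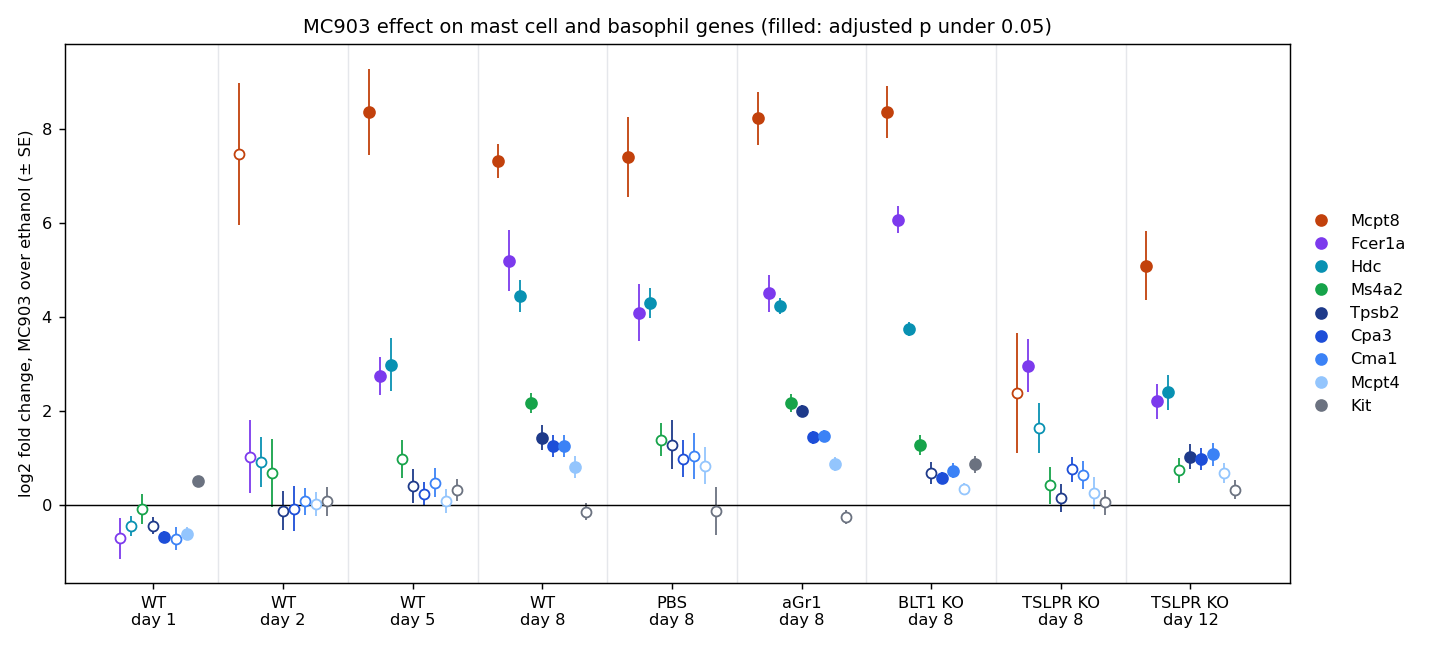
Log2 fold change of MC903 over ethanol (vertical axis, with standard errors) for Mcpt8, Fcer1a, Hdc, Ms4a2, Tpsb2, Cpa3, Cma1, Mcpt4 and Kit in each of the 9 comparisons; filled points have an adjusted p under 0.05, and Mcpt8 was not tested at day 1. Mcpt8 is the highest point in wild-type skin at days 2, 5 and 8 and Fcer1a in TSLPR KO skin at day 8 (2.97 against 2.39); where Mcpt8 had 0 ethanol counts the fitted value is no bound.

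The same genes were then compared in injected mice. In PBS-injected skin at day 8, Mcpt8 was at 12.2 and 14.4 cpm with MC903 and at 0, 0.238 and 0 cpm with ethanol, a log2 fold change of 7.40 ± 0.84 (adjusted p = 0.00831). Fcer1a was at 6.25 and 6.87 cpm against 0.413, 0.675 and 0.0790 cpm (4.09 ± 0.60, adjusted p = 0.0185), and Hdc at 47.6 and 54.2 cpm against 2.51, 3.65 and 1.82 cpm (4.29 ± 0.31, adjusted p = 0.00183). These 3 of 10 passed, where 3.26% of all genes were higher, with a median of 1.34 over the 10 against -0.01 for all genes. Mcpt8 and Fcer1a were not called without ethanol replicate 1 (6.74 and 4.09, adjusted p = 0.0866 and 0.163), nor Fcer1a without either MC903 library (adjusted p = 0.0784 and 0.1004), where the lone MC903 library is assumed to vary as the ethanol libraries do.

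The calls of most proteases in this group turned on 1 ethanol library. Mcpt4 was at 77.3 and 53.7 cpm with MC903 and at 34, 56.4 and 21.7 cpm with ethanol, and Cpa3 at 63.4 and 45.2 cpm against 21.9, 44.1 and 18 cpm, where replicate 2 was the high ethanol library for both. With it no protease passed by edgeR (0.84 to 2.64), and Tpsab1 passed by DESeq2 (adjusted p = 0.0104) and without a filter on low counts (0.0485). Without it all 5 passed, from 1.26 for Mcpt4 to 3.09 for Tpsab1, Ms4a2 passed too, and the count went from 3 to 9, while the count over all genes went from 973 to 2172 (9.12% of those tested). The 2 treatments did not overlap for 7 of the 10 genes, all but Mcpt4, Cma1 and Kit, and for 20.1% of all genes in that direction.

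In aGr1-injected skin Mcpt8 was at 11.6, 8.34, 13.3 and 5.20 cpm with MC903 and at 0.0386, 0.0366, 0 and 0 cpm with ethanol, 841 counts against 2 and a ratio of 471 (95% interval 130 to 3896, counting error only; adjusted p = 1.91e-05). Mcpt4 was at 58.5, 74.9, 85.2 and 62.7 cpm against 25.7, 25.4, 42.7 and 26.4 cpm (0.88 ± 0.15, adjusted p = 0.00267). Tpsb2 was at 54.3, 69.96, 68.2 and 70.2 cpm against 12.4, 11, 16.4 and 11.2 cpm (2.01 ± 0.12, adjusted p = 1.14e-05). None of these overlapped.

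Of the 10 genes, 9 rose in this group, all but Kit (-0.24 ± 0.15), where 15.1% of all genes did, with a median of 2.09 against -0.02, and the count was 9 without each library in turn. For the same 9, and for 22.4% of all genes, each MC903 library was above each ethanol library. Cma1 and Cpa3 rose by 1.47 and 1.45, Tpsab1 by 2.53, Fcer1a by 4.50, Ms4a2 by 2.18 and Hdc by 4.24. Scaling by library totals alone moved the median of all genes by 0.35 here. The 9 calls remained, and Kit changed sign to 0.12. For none of the 10 did a difference from the MC903 effect in uninjected wild-type skin pass by edgeR or by DESeq2, or by edgeR with PBS-injected mice as the comparison, where 4.56% of all genes passed against uninjected mice. The difference was 1.01 ± 0.93 for Mcpt8 (adjusted p = 0.599). With cohort B alone as the wild-type group, Tpsb2 rose more with aGr1 by 1.43 ± 0.19 (adjusted p = 0.00869).

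In BLT1 KO skin Mcpt8 was at 17.3, 11.9 and 9.17 cpm with MC903 and at 0.0594, 0 and 0.0408 cpm with ethanol (8.35 ± 0.55, adjusted p = 2.69e-05). Fcer1a was at 8.38, 7.95 and 10.004 cpm against 0.134, 0.121 and 0.122 cpm (6.07 ± 0.28), and Hdc at 85, 59 and 66.8 cpm against 4.92, 4.83 and 5.46 cpm (3.75 ± 0.16). The groups were far apart for all 3. Cma1 (0.74), Cpa3 (0.59), Ms4a2 (1.28) and Kit also rose, so 7 of 10 passed where 14.1% of all genes were higher, with a median of 1.07 against -0.04. Mcpt4 (0.36), Tpsb2 (0.68) and Tpsab1 (1.95) had adjusted p of 0.0557, 0.0553 and 0.0657 by edgeR, and DESeq2 called all 3 (0.0336, 0.0174 and 0.0197). Of 7 settings, the main fit among them, Mcpt4 passed in 3, Tpsb2 in 5 and Tpsab1 in 1. Tpsb2 and Tpsab1 also passed in edgeR without ethanol replicate 3. MC903 libraries were above ethanol libraries for all 10 genes and for 22.9% of all genes.

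Kit was at 38.2, 28.7 and 30.5 cpm with MC903 and at 13.5, 19.3 and 18.9 cpm with ethanol in BLT1 KO skin, without overlap (0.87 ± 0.17, adjusted p = 0.00597). It was the 1 gene of the 10 whose MC903 effect differed from that in wild-type skin, where 6.95% of all genes did. The difference was 1.05 ± 0.30 (adjusted p = 0.0418). It was not called without any 1 of the 6 BLT1 KO libraries (0.89 to 1.15, adjusted p 0.0522 to 0.11), nor with cohort B alone (0.69) or PBS-injected mice (1.13) as the comparison. In the same contrast 6 of 8 melanocyte genes differed, all higher, Tyrp1 by 3.999, Dct by 2.88 and Pmel by 3.78. Their 8 genes summed to 34.7 to 46.4 cpm with ethanol and to 147 to 238 cpm with MC903 in BLT1 KO skin, and to 293 to 463 cpm and 139 to 248 cpm in wild-type skin; their part in the Kit counts was not tested.

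In TSLPR KO skin Mcpt8 stayed low. At day 8 it had 14, 2 and 9 counts with MC903 (0.515, 0.0574 and 0.309 cpm) and 2 and 1 with ethanol (0.0691 and 0.0347 cpm), which overlap. The ratio of the summed counts was 5.28 (95% interval 1.61 to 27.3, counting error only), and the gene did not pass (2.39 ± 1.27, adjusted p = 0.427, 0.353 to 0.652 with a library left out). Every MC903 library of the wild-type, PBS, aGr1 and BLT1 KO groups at day 8 was higher, at 5.20 cpm or more.

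Fcer1a was the 1 gene of 10 that passed at day 8 in TSLPR KO skin, where 1.31% of all genes were higher. It was at 5.84, 3.25 and 2.27 cpm with MC903 and at 0.691 and 0.277 cpm with ethanol, without overlap (2.97 ± 0.56, adjusted p = 0.0255). The call was lost without MC903 replicate 1 (2.57, adjusted p = 0.112) or ethanol replicate 2 (2.49, adjusted p = 0.0828), which leaves 1 ethanol library. Hdc was at 23.8, 10.3 and 8.005 cpm against 6.74 and 2.32 cpm (1.65 ± 0.53, adjusted p = 0.176), and DESeq2 called it (adjusted p = 0.0361).

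No protease passed. Mcpt4 was at 39.0, 39.2 and 30.5 cpm with MC903 and at 44.8 and 17.1 cpm with ethanol, and Cpa3 at 56.7, 63.9 and 56.9 cpm against 45.6 and 25.7 cpm (0.76 ± 0.26, adjusted p = 0.2). Ethanol replicate 2 was the low library for Mcpt4, Cma1, Cpa3 and Tpsb2, and without it Mcpt4 and Tpsb2 changed sign, to -0.24 and -0.07, with 1 ethanol library left that is assumed to vary as the MC903 libraries do. All MC903 libraries were above all ethanol libraries for 5 of the 10 genes (Cma1, Cpa3, Tpsab1, Fcer1a and Hdc) and for 15.3% of all genes. The median of the 10 genes was 0.62 against 0.0026 for all genes.

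Tested directly, the MC903 effect at day 8 in TSLPR KO less that in wild-type skin was -4.91 ± 1.56 for Mcpt8, -2.76 ± 0.65 for Hdc, -1.72 ± 0.42 for Ms4a2 and -2.20 ± 1.08 for Fcer1a on the log2 scale. By edgeR none of the 10 passed (adjusted p = 0.232, 0.11, 0.124 and 0.409), where 48 of 27120 genes, 0.177%, did. Mcpt8, Hdc, Ms4a2 and Tpsb2 had an unadjusted p under 0.05, as did 3460 of all genes. DESeq2 called Mcpt8 (adjusted p = 0.00244), Hdc (0.00416) and Ms4a2 (0.00949), where it called 559 genes, 2.06% of those tested. The differences of Tpsb2 and Tpsab1 were -1.24 ± 0.45 and -1.996 ± 0.999. Those of Mcpt4, Cma1 and Cpa3 were -0.50 ± 0.44, -0.58 ± 0.41 and -0.46 ± 0.39, and -0.01, -0.01 and 0.18 with cohort B alone as the wild-type group, against -5.02 ± 1.43 for Mcpt8.

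At day 12 in TSLPR KO skin Mcpt8 was at 0.478, 0.383, 0.291 and 0.414 cpm with MC903 and at 0, 0.0252 and 0 cpm with ethanol. With 71 counts against 1, the ratio was 51.3 (95% interval 8.92 to 2054, counting error only), and the gene rose (adjusted p = 0.00352). Wild-type skin of day 12 was left out, and the level was below that of every wild-type MC903 library of days 5 and 8. The MC903 levels of the proteases were higher: Mcpt4 was at 72, 95, 92.4 and 74.1 cpm against 54.3, 56.7 and 26.1 cpm with ethanol (0.70 ± 0.21, adjusted p = 0.072). Tpsb2 was at 34.8, 37.0, 48 and 29.7 cpm against 19.2, 21.9 and 8.11 cpm (1.03 ± 0.26, adjusted p = 0.0379). MC903 libraries were above ethanol libraries for all 10 genes, and for 14.6% of all genes.

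Here 7 of 10 rose (Mcpt8, Cma1 by 1.09, Cpa3 by 0.98, Tpsb2, Tpsab1 by 1.996, Fcer1a by 2.21 and Hdc by 2.40), where 5.41% of all genes did, with a median of 1.06 against -0.02. Between 3 and 7 passed with a library left out: 3 without MC903 replicate 2 or ethanol replicate 2, and 4 without MC903 replicate 1. Mcpt8, Fcer1a and Hdc passed each time, and Mcpt4 passed without ethanol replicate 1 (0.94, adjusted p = 0.0427). Ethanol replicate 3 was the lowest library for 8 of the 10 genes. Scaling by library totals alone moved the median of all genes by 0.19 here and left the same 7 called.

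Other genes known from basophils were then counted from a list of 9. At day 5 Csf2rb (the shared beta chain of the interleukin 3 and GM-CSF receptors, 1.71 ± 0.32) and Prss34 (a protease of basophils and mast cells, 3.96 ± 0.96) rose. At day 8, 8 of 9 rose and 0 fell (12.2% of all genes rose), with the smallest adjusted p for Csf2rb (2.78 ± 0.18), Cd200r3 (an activating surface receptor, 1.88 ± 0.16) and Itga2b (an integrin chain, 1.16 ± 0.17), with a median of 2.46. With aGr1, 7 rose (15.1% of all genes did) and Cebpa, a myeloid transcription factor, fell by 0.47; in BLT1 KO skin 6 rose (14.1%) and Cebpa fell by 0.53; with PBS 3 rose (3.26%). In TSLPR KO skin 0 of 8 tested passed at day 8 (median 0.05), where 1.31% of all genes were higher. At day 12 there, 5.41% of all genes rose, Csf2rb rose by 1.2 and Il13 fell by 2.51. Csf2rb was the 1 gene of the 9 whose MC903 effect was smaller in TSLPR KO than in wild-type skin by edgeR (-2.08 ± 0.33, adjusted p = 0.0178). Prss34, on 53 counts or fewer in any library of those groups, lay between 0.460 and 1.51 cpm in MC903 wild-type skin at day 8 and between 0 and 0.184 cpm in MC903 skin of both TSLPR KO groups.

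Of 16 further mast cell genes, 9 rose and 2 fell at day 8 (median 0.91), where 12.2% of all genes rose. Cyp11a1 (a steroid enzyme, 2.37 ± 0.23), Gata2 (2.003 ± 0.23) and Il1rl1 (the receptor for interleukin 33, 1.82 ± 0.26) had the smallest adjusted p, and basophils also make some of these. Mitf fell by 0.69 ± 0.18. Cyp11a1 was the 1 gene of the 16 whose MC903 effect was smaller in TSLPR KO than in wild-type skin by edgeR (-2.52 ± 0.44, adjusted p = 0.0302). Mrgprb2, a receptor for basic peptides and drugs that is a marker of connective tissue mast cells, was at 2.84 to 4.46 cpm with MC903 and at 6.87 to 28.9 cpm with ethanol, without overlap, and fell by 1.77 ± 0.33 (adjusted p = 0.00197), opposite to the proteases. It also fell at day 5 (by 3.13), with aGr1 (by 1.40), in BLT1 KO skin (by 2.85) and in TSLPR KO skin at day 8 (by 1.60, adjusted p = 0.0474). The values were -2.18 with PBS and -1.06 in TSLPR KO skin at day 12, where it did not pass. Mrgprb1, from the same list, went the other way: it rose at wild-type day 8 and with aGr1. In the other comparisons with ethanol Mrgprb1 was not called.

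Of the 16, 8 rose with aGr1 (15.1% of all genes did), 7 in BLT1 KO skin (14.1%), 3 with PBS (3.26%) and 3 in TSLPR KO skin at day 12 (5.41%). Those 3 were Tph1 (2.11) and the mucosal mast cell proteases Mcpt1 and Mcpt2 (1.21 to 3.86 and 1.01 to 3.71 cpm with MC903, 0.170 and 0.0639 cpm at most with ethanol). At day 8 in TSLPR KO skin 0 rose, where 1.31% of all genes did.

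Of 13 genes that carry the signal of the IgE receptor, 9 rose and 1 fell at day 8 in wild-type skin (median 1.001), where 12.2% of all genes rose. Plcg2 (0.98), Lcp2 (1.71) and Gab2 (0.94) had the smallest adjusted p, and the kinase Fyn fell by 0.73. At day 5, 1 rose, Lcp2 (8.15% of all genes did), and with aGr1 2 rose (15.1%), which are shares near those of all genes. In BLT1 KO skin 6 rose (14.1%) and with PBS 5 (3.26%). In TSLPR KO skin 0 of 13 passed at day 8, where 1.31% of all genes were higher, and 1 rose at day 12 (5.41%). Many leukocytes use these genes, and 4 of 4 genes common to leukocytes rose at day 8 as well; their part in the result was not tested.

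Among 12 factors that feed, recruit or activate these cells, Tslp rose at day 5 (6.67 ± 0.38), at day 8 (4.43 ± 0.57) and in TSLPR KO skin at day 8 (6.75 ± 0.53) and day 12 (5.36 ± 0.35). Tslp also rose with PBS, with aGr1 and in BLT1 KO skin. At day 2, where edgeR called no gene, its change was 7.49 ± 0.60 (adjusted p = 0.0815 by edgeR). In wild-type skin at day 8, 9 of 11 tested rose, where 12.2% of all genes did. Il33 rose by 3.67, and Kitl, the ligand of Kit, did not pass (-0.19). Kitl was higher with MC903 at day 1 and in BLT1 KO skin, and was not called in the other comparisons with ethanol. As for Kit, its MC903 effect was larger in BLT1 KO than in wild-type skin by edgeR. Whether Kitl bears on the Kit counts was not tested. Of 8 histamine receptors and enzymes, Hrh1 (0.82) and Hrh4 (2.69) rose and Slc22a3, a histamine transporter, fell by 0.92 at day 8, while Hnmt, which breaks histamine down, fell at day 5 by 1.63.

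Markers of other cells moved beside some of the genes. Neutrophils can also make Hdc, and the 10 neutrophil genes summed to 11.2 to 18.9 cpm with ethanol and to 74.4 to 383 cpm with MC903 in wild-type skin at day 8. Of these, 6 rose, where 12.2% of all genes did. In TSLPR KO skin at day 12, where Hdc rose by 2.40, 3 of the neutrophil genes rose (5.41% of all genes did). With MC903 their sum there was 76.6 to 225 cpm. Elane and Ly6g, also among the 10 neutrophil genes, reached 0.457 and 0.542 cpm at most in skin. Dendritic cells can carry Fcer1a, and of 6 genes of dendritic and monocytic cells 3 rose at day 8 in wild-type skin (12.2% of all genes did). In TSLPR KO skin at day 8, where Fcer1a rose, 0 of the 6 rose (1.31% of all genes did) and 1 fell. The part of these cells in the counts was not tested.

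As a description over the 61 libraries, which share depth and treatment as sources of variation, Mcpt8 and Mcpt4 had different nearest genes by Pearson's r of log2(cpm + 0.5) among 19450 genes. For Mcpt8 these were Grm6 (0.965), Osm (0.925), Csf2rb2 (0.920), Csf2rb (0.919), Hgf (0.912), Il4ra (0.911), Il19 (0.911) and Hdc (0.911). For Mcpt4 they included Cma1 (0.944), Cmtm3 (0.869), Tyrobp (0.849), Spi1 (0.837), Ly6a (0.835), Ldha (0.835) and C1qb (0.832). Of the 10 genes themselves, Fcer1a (0.877) and Ms4a2 (0.844) had the next highest r with Mcpt8, and Cpa3 (0.782) and Tpsb2 (0.777) with Mcpt4. Tpsab1 had a higher r with Mcpt8 (0.700) than with Mcpt4 (0.482), Cpa3 had 0.661 with Mcpt8, and Kit had 0.0881 and -0.531.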

How the data were processed

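Poly(A) RNA was sequenced as 50 bp single-end reads, and the authors aligned them to mm10 with Bowtie2 and TopHat and counted them with htseq-count; the deposited values are raw counts per Ensembl gene. The annotation release and strand setting are not given in the sources used here. Reads that matched no gene or several genes made up 9.88 to 20.5% of those tallied. They and all other reads not assigned to a gene were left out of library totals. Symbols came from GENCODE M21 (45143 identifiers matched, 935 did not), and promoters from RefSeq. Each comparison used edgeR 4.0.16 (R 4.3.3), TMM scaling, genes with at least 10 counts in total and a quasi-likelihood F test, adjusted over all genes tested; wild-type day 8 had a cohort term, and differences between genotypes or injections were interaction terms. Alternatives included DESeq2 1.42.0, other scalings and filters, each cohort, a replicate block and leaving out each library. The method was tested on simulated data. Levels in cpm use library totals without TMM, and intervals and floors cover counting error only. The labels do not say that each library came from a different mouse, so p-values measure the spread between libraries. The 10 genes and all lists were chosen with earlier results of these data known. All 10 were described in every comparison, and from each list at most 3 genes a direction with the smallest adjusted p. Prss34, Mrgprb1, Mrgprb2, Kitl, Elane and Ly6g were named further after their values had been seen. Some genes that this rule selects are not reported here.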

Additional observations from a re-analysis of the deposited data

Results flagged for a closer look

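Of 68 pairs of a gene and a group of 4 to 6 libraries, 8 held a library outside the spread of the rest, where chance gives about 1 in 20. Cpa3 was highest in MC903 library A3 of wild-type day 8 (88.1 cpm, others 43.3 to 55.3) and in MC903 library 2 of TSLPR KO day 12 (76.7 cpm, others 49.4 to 53.3). In MC903 skin of the aGr1 group, library 1 was lowest for Cma1 (45.4 cpm, others 60.8 to 63.1) and Tpsb2 (54.3 cpm, others 68.2 to 70.2). In ethanol skin of that group, library 3 was highest for Mcpt4 (42.7 cpm, others 25.4 to 26.4) and Ms4a2 (2.89 cpm, others 1.35 to 1.61). Fcer1a was highest in ethanol library B2 of wild-type day 8 (0.763 cpm, others 0 to 0.245), and Hdc was lowest in MC903 library 3 of day 1 (1.35 cpm, others 2.09 to 2.24).

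The MC903 effect on Kit was larger in BLT1 KO than in wild-type skin by 1.05 (edgeR interaction), a call that was lost without each of the 6 BLT1 KO libraries in turn and with cohort B or PBS-injected mice as the wild-type group. Cpa3 moved in opposite directions: every MC903 library was below every ethanol library at day 1 (-0.67), and every one was above in wild-type, PBS-injected, aGr1-injected and BLT1 KO skin at day 8 and in TSLPR KO skin at days 8 and 12. The difference between these comparisons was not tested.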

How the results depend on the processing

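Limits were group sizes of 2 to 6 libraries and, for Mcpt8, counts of 0 to 6 in ethanol skin. The 9 calls with aGr1 and the 3 at day 5 were kept by every left-out library; in the other comparisons with calls 1 library could end or add one. Causes of the changes that follow were not tested. Over all fits, the share of all genes called ran from 1.61 to 20.9% at day 1 and 0 to 3.56% at day 2. It ran from 9.36 to 29.8% at day 8, 0.425 to 9.12% with PBS and 0.759 to 5.41% in TSLPR KO skin at day 8. At day 12 there it ran from 2.15 to 15.9%. Against wild type it ran from 0.232 to 9.04% for aGr1, 0 to 2.06% for TSLPR KO and 0.0296 to 11.4% for BLT1 KO. Of 10 genes, with library totals 1 was called at day 1. One fit over wild-type days called 0 at day 1 and 1 at day 2. DESeq2 called 1 at day 2, 5 with PBS, 2 in TSLPR KO skin at day 8 and 3 for TSLPR KO against wild type; without a filter on low counts the last 2 were 2 and 1. Cohort B alone called 5. As the wild-type group, cohort B gave 1 call for aGr1 and 0 for BLT1 KO, as did PBS for BLT1 KO (0). The correlations of same-numbered libraries did not show that replicate numbers pair the samples. No comparison with 3 or more pairs had every correlation over 0.1. With fewer pairs they ran from -0.562 (PBS) to 0.248 (day 2), and so few pairs cannot decide the question. With a replicate block 1 gene was called at day 2, 2 in TSLPR KO skin at day 8 and 1 at day 12.

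Mcpt8 at day 2 passed with DESeq2 (6.90), the replicate block (7.80) and one fit over days (7.47). In TSLPR KO skin at day 12 it did not pass with the block (5.06), and against wild type it passed with DESeq2 (-4.90). Signs turned, all without a call in either direction unless given above: with the block, Cpa3 (0.27) and Kit (-0.11) at day 2, Kit with PBS (0.17) and, for aGr1 against wild type, Tpsab1 (0.13), Kit (0.0035) and Ms4a2 (-0.0909); with library totals, Kit with aGr1 (0.12) and, against wild type, Tpsab1 (0.29), Kit (0.25) and Hdc (0.17); in cohort B, Kit at day 8 (0.26). With cohort B as the wild-type group they turned for aGr1 in Tpsab1 (1.63), Fcer1a (0.59) and Hdc (0.0842), for TSLPR KO in Cpa3 (0.18) and Kit (-0.18), and for BLT1 KO in Mcpt4 (0.14), Cma1 (0.15), Cpa3 (0.0642), Tpsb2 (0.18) and Tpsab1 (1.12); with PBS mice as that group, in Fcer1a for aGr1 (0.46) and Ms4a2 for BLT1 KO (0.0186).

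With a library left out, the number called ran from 1 to 4 (day 1), 8 to 9 (day 8), 1 to 9 (PBS), 7 to 9 (BLT1 KO), 0 to 1 (TSLPR KO day 8), 3 to 7 (TSLPR KO day 12), while over all genes it ran from 1304 to 5092, 4883 to 6445, 101 to 2172, 5607 to 7294, 179 to 822 and 1197 to 3603. Log2 fold changes that turned sign ran, for Tpsab1 (day 1) from -0.0177 to 1.67, Ms4a2 (day 1) from -0.26 to 0.15, Mcpt4 (day 2) from -0.0223 to 0.11, Cpa3 (day 2) from -0.35 to 0.27, Tpsb2 (day 2) from -0.35 to 0.18, Kit (day 2) from -0.10 to 0.23, Mcpt4 (day 5) from -0.25 to 0.25, Kit (PBS) from -0.76 to 0.33, Mcpt4 (TSLPR KO day 8) from -0.24 to 1.05, Tpsb2 (TSLPR KO day 8) from -0.0749 to 0.43, Kit (TSLPR KO day 8) from -0.29 to 0.51, Mcpt4 (aGr1 against wild type) from -0.03 to 0.18, Tpsab1 (aGr1 against wild type) from -0.23 to 0.22, Kit (aGr1 against wild type) from -0.20 to 0.011, Ms4a2 (aGr1 against wild type) from -0.12 to 0.16, Mcpt4 (TSLPR KO against wild type) from -1.05 to 0.25, Kit (TSLPR KO against wild type) from -0.15 to 0.65. Mcpt8 lost its call in PBS (6.74 to 11.38).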

Other observations

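Tpsb2 stood higher against Mcpt4 in some groups than in others, with either treatment. Per kb, Tpsb2 was 26.8 to 33.6% of Mcpt4 in ethanol skin of the aGr1 group, 21.2 to 32.7% in that of the PBS group and 21.6 to 26.8% in that of TSLPR KO mice at day 12, and 6.43 to 16.9% in the other ethanol groups. With MC903 it was 55.6 to 77.8% in the aGr1 group, 39.5 to 41.2% in the PBS group and 9.55 to 30.5% in uninjected wild-type skin at day 8.

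Outside skin, the proteases were low in 56 trigeminal ganglion libraries (wild-type day 12 left out), with medians of 1.55 cpm for Mcpt4, 1.94 cpm for Cpa3 and 0.930 cpm for Tpsb2, while Mcpt8 had 0 counts in 31 of them and reached 0.949 cpm. In 27 spinal cord libraries Mcpt4 reached 0.0347 cpm at most, and Mcpt8 had a median of 0.0771 cpm and a maximum of 1.14 cpm. Kit was higher in ganglion (49.7 to 110 cpm) than in spinal cord (20.2 to 34.8 cpm), without overlap.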
